A study of Mus musculus with 4 samples.

Results

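Glutathione is the most abundant small thiol of animal cells. Many glutathione peroxidases use it to reduce hydrogen peroxide and lipid hydroperoxides. Glutamate-cysteine ligase and glutathione synthetase make it, and glutathione reductase returns its oxidised form to the reduced one with NADPH. This account describes 10 genes of these enzyme families in mouse embryonic stem (ES) cells that carry or lack Klf5, a Kruppel-like transcription factor. They are 6 peroxidases (Gpx1, Gpx2, Gpx3, Gpx4, Gpx7 and Gpx8) and 4 enzymes of synthesis and recycling (Gss, Gsr, Gclc and Gclm). Members were all probe sets that the platform annotation gives to these symbols, 15 of the 45037 probe sets other than controls (10 of 18193 named genes), with 7 for the peroxidases and 8 for the other enzymes. The genes were chosen by the KO against WT difference of Gpx2 on these same arrays, so that difference, and those of the other members, are given as descriptions with no test.

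The series held 4 Affymetrix arrays, 1 for each of 2 wild-type (WT) clones and 2 clones in which Klf5 was knocked out (KO), all of them mouse ES cells grown alike, with 15% serum and with LIF, which holds such cells undifferentiated. Strain, parental line and the deleted part of Klf5 were left unstated in the labels, as was whether the clones were grown in parallel. A clone stands for a single event of isolation, so p-values measure only the spread between clones as labelled.

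Levels are normalized intensities, the deposited probe set intensities after quantile normalization, in arbitrary units that cannot be compared between probe sets. Differences are KO minus WT means of log2(intensity + 16), a scale that understates changes of dim probe sets, with the moderated standard error (SE) of a linear model (limma) and n = 2 clones per group. Before normalization WT clone 1 was the brightest array, with a trimmed mean intensity of 226 against 137 to 149.8 in the others. The brightest Klf5 probe set read 2398 and 1782 in WT clones against 34.8 and 49.9 in KO clones, which separated the arrays as labelled. A dimmer Klf5 probe set gave 102 and 88.6 in WT clones against 82.6 and 61.0 in KO clones (-0.35 ± 0.20, limma adjusted p = 0.36), and the third was under the filter. Whether either lies in the deleted part is not known here. All 10 ES cell markers checked, Pou5f1, Sox2 and Nanog among them, were above the filter on dim probe sets. Their summed level was 37853 and 38670.2 in WT clones and 35916 and 36620.4 in KO clones. Dppa5a gave the largest part of these sums (10276 and 10142 in WT, 10124 and 10837 in KO clones). Taken singly, 5 ES cell markers had each KO clone under each WT clone. For 1 (Tdgf1) the order was the opposite, and 4 overlapped. Their log2 differences ran from -0.67 (Esrrb) to 0.24 (Tdgf1), with a median of -0.15, and 0 passed (limma, adjusted p under 0.05). Genes of fibroblasts differed between the groups. Of 12 measured markers 11 rose and 0 fell (limma, adjusted p under 0.05), beside 2.94% that rose over all genes. The markers had a median log2 fold change of 2.23. Their summed level was 642 and 544 in WT clones and 6681 and 5773 in KO clones, and none of the 13 on the array was listed at 0. S100a4 gave the largest part of the KO sums, at 2959.9 and 1925. Lum was under the filter, at 3.73 and 12.4 in WT clones and 7.58 and 8.04 in KO clones. Cells of another type, or more RNA of these genes per cell, cannot be told apart in bulk RNA.

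The windows upstream of the transcription start are shown for Gpx2 and Gpx8, the members with the largest difference in each direction, as context for a study of a transcription factor. They are the 250 bases before the RefSeq start of each gene in GRCm38.p6, 5′ to 3′ on the gene's own strand. Capitals mark matches, on either strand, to CACCC and to TGANNNNGC. CACCC is the core of the box that Kruppel-like factors bind. TGANNNNGC is a loose form of the core of the antioxidant response element.
Gpx2, chr12:76795555-76795804, minus strand: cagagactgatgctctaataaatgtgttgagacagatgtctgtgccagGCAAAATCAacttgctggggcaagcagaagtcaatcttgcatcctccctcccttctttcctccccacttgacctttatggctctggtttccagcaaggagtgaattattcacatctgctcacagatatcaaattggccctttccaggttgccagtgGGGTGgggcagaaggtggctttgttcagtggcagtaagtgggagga
Gpx8, chr13:113046389-113046638, minus strand: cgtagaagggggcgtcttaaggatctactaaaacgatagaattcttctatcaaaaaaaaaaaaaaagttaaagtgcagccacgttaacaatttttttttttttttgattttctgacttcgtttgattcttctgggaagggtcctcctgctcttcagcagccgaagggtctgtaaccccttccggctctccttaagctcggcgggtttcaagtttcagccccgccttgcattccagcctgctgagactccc
The Gpx2 window held 1 match to CACCC, beginning 46 bases before the start, and 1 match to TGANNNNGC, beginning 202 bases before it, both on the strand opposite to the gene and not overlapping. The Gpx8 window held 0 matches to either. Of 32536 distinct windows of that length, 52.1% held CACCC and 35.3% held TGANNNNGC. Sequences for 8 of the 10 members (11 windows, since Gpx4 has several starts) were matched, and those of Gsr and Gclc were not. Among the 11 windows, 4 held CACCC and 2 held TGANNNNGC. A match of letters is not a binding site, and binding was not measured here.

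Gpx2 encodes the selenium-containing peroxidase best known from the lining of the gut. It read 85.7 in WT clone 1 and 72.5 in WT clone 2, against 2.29 in KO clone 1 and 10.7 in KO clone 2. Both KO clones were below both WT clones, and both lay under 13.0, the intensity at which the filter on dim probe sets was set, so the probe set passed that filter only through the WT arrays. The log2 difference was -2.10 ± 0.22 (SE, n = 2), or 4.29-fold. The size rests on the pseudocount, because the KO intensities were so low: a pseudocount of 1 gave -3.69 and one of 64 gave -1.02. In the values as deposited the intensities were 116 and 59.4 in WT clones against 2.20 and 10.6 in KO clones, which were again separate. Only 1 probe set was annotated to Gpx2, so no other measurement of the same transcript could be set beside it.

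**Figure D1:**
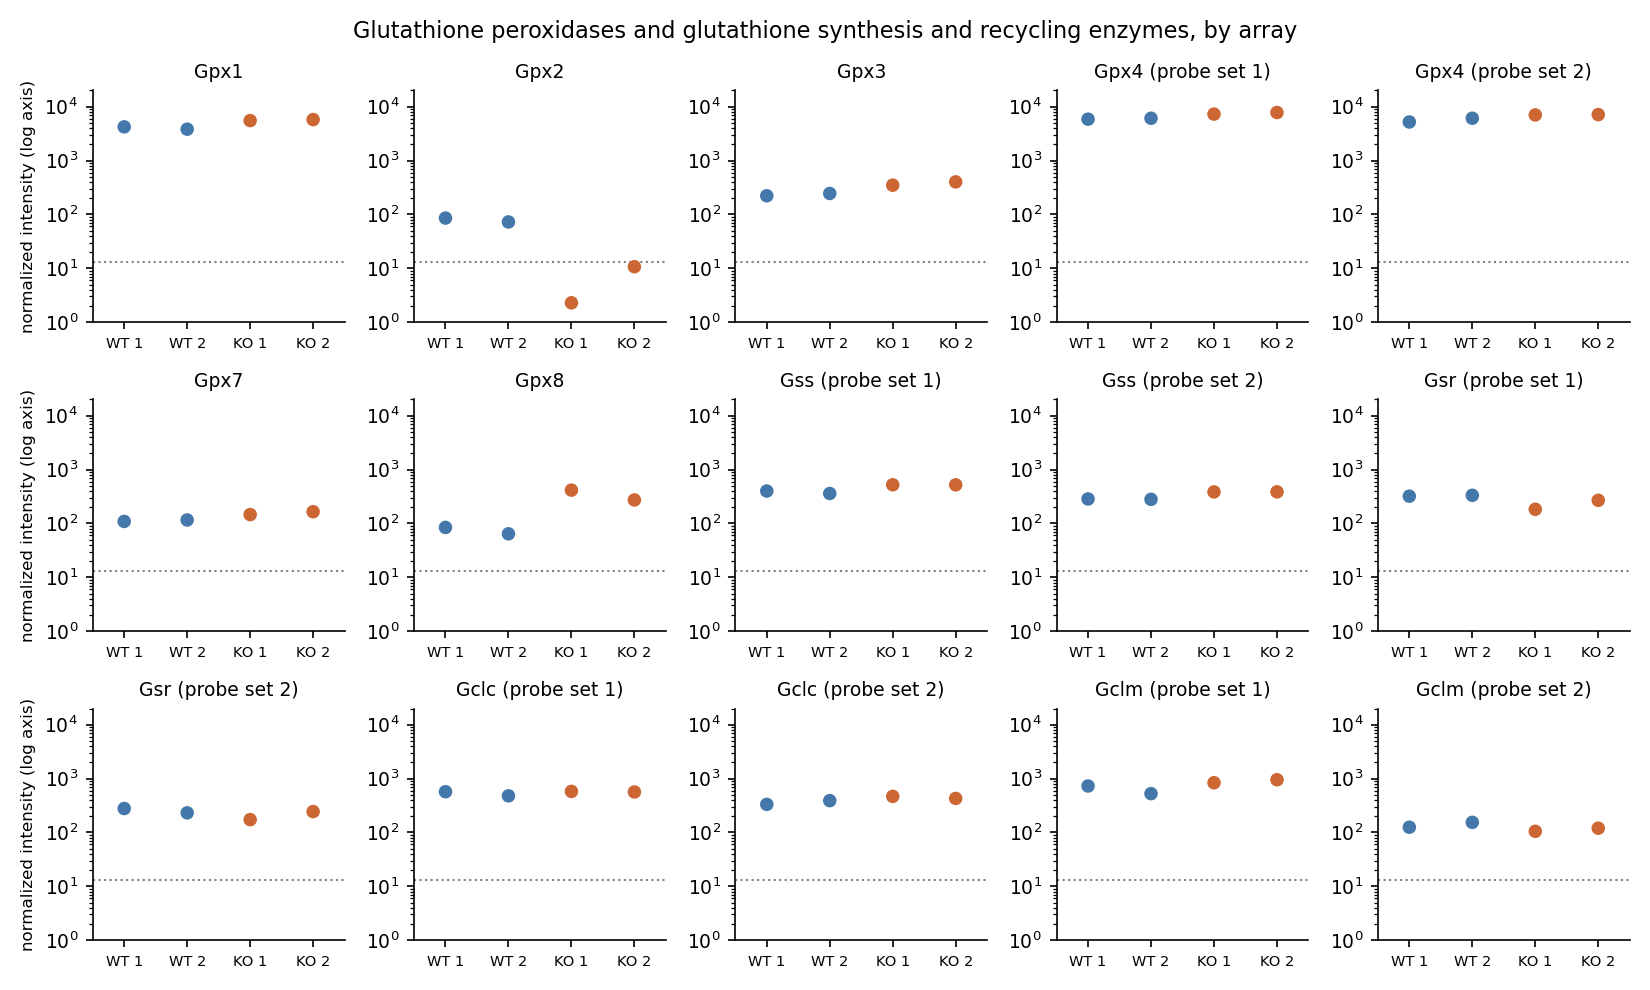
Normalized intensity (arbitrary units, log axis) of every probe set of the 10 genes in each of the 4 arrays, with blue points for WT and orange points for Klf5 KO clones, and the dotted line at the filter intensity of 13.0. Gpx2 is the only panel with points under the line, both of them from KO clones, and Gpx8 shows the largest step upwards.

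Gpx1 encodes the abundant peroxidase of the cytosol and mitochondria and is the closest relative of Gpx2. Its probe set read 4227 and 3824 in WT clones and 5533 and 5770.3 in KO clones, so both KO clones were higher after normalization. The log2 difference was 0.49 ± 0.18, or 1.40-fold. In the deposited values the groups overlapped, with 5200.1 in WT clone 1 just above the 5195 of KO clone 1. The difference was then 0.33, or 0.37 after centring on the median. The values for Gpx1 and Gpx2 thus lay on opposite sides of 0. The platform gave each gene its own probe set, at the 99.1st and the 55.0th percentile of mean log2 value.

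Gpx4 encodes the peroxidase that acts on lipid hydroperoxides within membranes and guards cells against ferroptosis. Its brighter probe set by the rule read 5871 and 6106 in WT clones against 7293 and 7805 in KO clones. The other one, with a suffix (_x_at) for probes that can match other transcripts, read 5205 and 6116 in WT clones against 7047 and 7138 in KO. Both gave a log2 difference of 0.33 ± 0.18, or 1.26-fold, with KO clones above WT clones each time.

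Gpx3 encodes the peroxidase that is secreted into plasma. It read 222 and 245 in WT clones and 349 and 402 in KO clones, a log2 difference of 0.65 ± 0.18, or 1.56-fold. The groups did not overlap after normalization. In the deposited values they did, with 313 in WT clone 1 above the 285 of KO clone 1, and the difference was 0.35, or 0.38 after centring.

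Gpx7 and Gpx8 encode the peroxidases of the endoplasmic reticulum, which carry a cysteine in place of selenocysteine. Gpx7 read 109 and 116 in WT clones and 146 and 165 in KO clones, a log2 difference of 0.41 ± 0.18, or 1.33-fold. It was 0.17 with no normalization, where the deposited values overlapped (149.9 and 96.8 in WT, 122 and 155 in KO clones), and 0.21 after centring on the median. Gpx8 read 84.3 and 64.2 in WT clones and 416 and 273 in KO clones. Its log2 difference was 1.98 ± 0.24, or 3.94-fold. Set against the WT mean, KO clone 1 stood at 2.27 and KO clone 2 at 1.69. The difference had the opposite sign to that of Gpx2. The KO clones differed from each other by 0.58 and the WT clones by 0.32, each as clone 1 minus clone 2 on the log2 scale. The summed fibroblast markers were higher in the same KO arrays (6681 and 5773 against 642 and 544), and their part in the Gpx8 difference was not tested.

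Of the enzymes of synthesis, Gclc and Gclm encode the catalytic and the modifier subunit of glutamate-cysteine ligase, which makes the rate-limiting step. The brighter Gclc probe set read 570.1 and 478 in WT clones and 578 and 564 in KO clones, with KO clone 2 between the WT clones and a log2 difference of 0.13 ± 0.19. The other Gclc probe set, with a suffix (_s_at) for probes shared with related transcripts, read 332 and 389.7 in WT clones against 467 and 428 in KO clones (0.30 ± 0.19). In the values as deposited and after centring on the median, the sign of the brighter one turned negative (lowest -0.21).

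Gclm showed a disagreement between its probe sets. The brighter one read 728 and 525 in WT clones and 838 and 951 in KO clones, a log2 difference of 0.52 ± 0.21. The dimmer one read 125 and 154 in WT clones and 105 and 119.8 in KO clones, a log2 difference of -0.27 ± 0.19. After normalization the groups were separate on both probe sets, in opposite directions. In the deposited values the brighter one overlapped, with 1036 and 443 in WT clones against 687 and 863 in KO clones. The mean of both probe sets gave 0.12, so no direction is given for Gclm.

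Gss encodes glutathione synthetase, which adds glycine in the step after the ligase. One probe set read 399.5 and 359.9 in WT clones and 522 and 521 in KO clones (0.44 ± 0.18), the other 285 and 280.1 in WT and 385 and 386 in KO clones (0.43 ± 0.18). Both placed the KO clones above the WT clones, at 1.36-fold and 1.34-fold. The deposited values of the first probe set, 571 and 302 in WT and 424 and 475 in KO clones, overlapped. Its difference was then 0.11, and 0.14 after centring. The other probe set, which has the suffix _x_at, overlapped as deposited too (404 and 232 in WT, 314 and 355 in KO clones).

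Gsr, the gene of glutathione reductase, was the only enzyme of synthesis and recycling with a negative difference on all of its probe sets. One read 320.5 and 333 in WT clones and 183 and 269 in KO clones (-0.53 ± 0.22), the other 278 and 231 in WT and 173 and 244 in KO clones (-0.28 ± 0.22). On the first both KO clones were lower, and on the other KO clone 2 lay between the WT clones. The difference came more from KO clone 1 (-0.79 against the WT mean on the first probe set) than from KO clone 2 (-0.27). It was -0.81 with no normalization and -0.77 after centring. KO clone 1 also had the highest 3′ to 5′ log2 ratio of the actin control probe sets, a sign of RNA quality, at 0.75 against 0.44 to 0.52 in the other arrays, while that of Gapdh ran from -0.33 to -0.29. The part of RNA quality in the Gsr values was not tested.

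**Figure D2:**
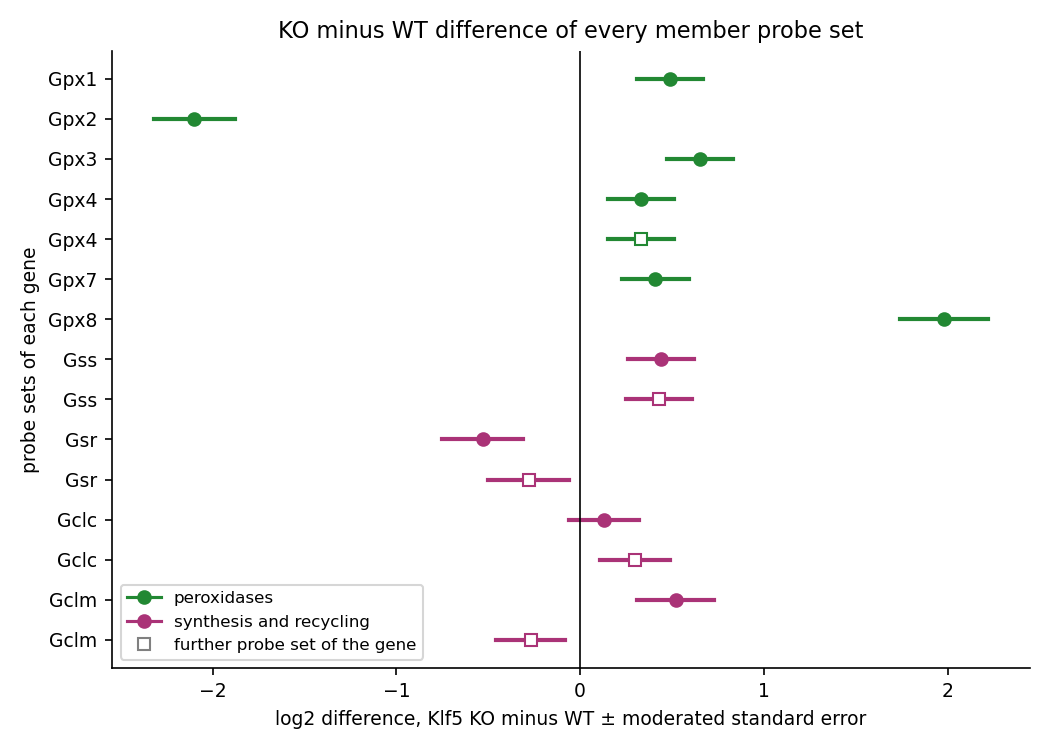
Log2 difference between KO and WT means (points) with its moderated standard error (bars, n = 2 clones per group) for each of the 15 probe sets, peroxidases in green, synthesis and recycling enzymes in purple, and open squares for further probe sets of a gene. At a pseudocount of 16, Gpx2 at -2.10 and Gpx8 at 1.98 stand at the ends, all other values lie between -0.53 and 0.65, and the Gclm probe sets fall on both sides of 0.

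Taking 1 probe set per gene, all 10 members passed the filter. Both KO clones were above both WT clones for 7 and below for 2 (Gpx2 and Gsr), and 1 (Gclc) overlapped. The 7 include Gclm, by its brighter probe set only. Over all measured genes 25.9% were higher in that way and 29.7% lower. Of the 15 probe sets, 10 were higher, 3 lower and 2 overlapped, beside 23.9% higher and 28.4% lower over all kept probe sets. The count depended on the scaling: in the values as deposited it was 2 higher (Gpx4 and Gpx8) and 2 lower (Gpx2 and Gsr), where the shares over all genes were 8.29% and 30.5%. No call is given for a member. As background, the fit placed 1.34% of all genes past the threshold as lower and 2.94% as higher, and 3.69% of all kept probe sets in either direction, 1.25% lower and 2.44% higher. Nothing is read from these counts, since the members were chosen with the contrast in view. The median log2 difference was 0.43 over the 10 members and -0.02 over all measured genes.

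The peroxidases were set against the enzymes of synthesis and recycling, as a description. Of the 6 peroxidases, 5 were higher and 1 lower in both KO clones, with differences from -2.10 to 1.98 and a median of 0.45. Of the 4 other enzymes, 2 were higher, 1 lower and 1 overlapped, with differences from -0.53 to 0.52 and a median of 0.28. Gclm was among the 2 by its brighter probe set (0.52), while its dimmer one was lower in both KO clones (-0.27). The median of these enzymes thus rests in part on a gene for which no direction is given. The difference between the class medians was 0.17 (0.11 from KO clone 1 alone, 0.23 from KO clone 2 alone), and 0.20 without Gpx2. The same quantity was -0.08 in WT clone 1 and 0.08 in WT clone 2 against the WT mean, so the gap between the classes was of the order of the spread between clones. Without Gpx2, whose difference chose the set, and Gpx8, the other 4 peroxidases spanned 0.33 to 0.65.

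The genes next to Gpx2 on chromosome 12 were Sptb and Churc1 on one side and Rab15 and Fntb on the other, by the order of protein-coding genes in GRCm38.p6. Fntb encodes the beta subunit of farnesyltransferase, the enzyme that attaches a lipid to Ras proteins. It read 509.6 and 315 in WT clones and 131 and 168 in KO clones, and fell by 1.34 ± 0.25 on the log2 scale (2.53-fold, limma with Benjamini-Hochberg adjustment over 27022 probe sets, adjusted p = 0.023). Rab15, a small GTPase gene that lies between Gpx2 and Fntb, read 131 and 108 in WT clones against 110.2 and 106 in KO clones, a difference of -0.12 ± 0.19 (adjusted p = 0.75). Churc1 had 0.23 ± 0.21 (adjusted p = 0.58) and Sptb, a spectrin gene, 0.06 ± 0.25 (adjusted p = 0.92) on their brightest probe sets. Leaving out WT clone 1 ended the call for Fntb (-0.98, adjusted p = 0.075). It was also lost when KO clone 1 (-1.19, adjusted p = 0.18) or KO clone 2 (-1.51, adjusted p = 0.075) was left out, and it held in the absence of WT clone 2 (-1.67, adjusted p = 0.0092). A pseudocount of 1 (adjusted p = 0.13) and no filter (adjusted p = 0.13) ended it too.

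The 5 genes whose log2 values, centred on each gene's mean, lay nearest to those of Gpx2 over the 4 arrays were Bcam, Lama1, Stmn2, 1700097N02Rik and Mras. Likeness was Euclidean distance, at 0.13 for Bcam, a laminin receptor, and 0.40 for the laminin chain gene Lama1. Bcam read 401 and 351 in WT clones and 67.9 and 101 in KO clones. Its KO values were well above the filter intensity and those of Gpx2 were under it, so the distance depends on the pseudocount. Stmn2, a microtubule regulator, stood at 0.42, 1700097N02Rik at 0.44 and the small GTPase gene Mras at 0.53. With 4 arrays, such a match is governed by the KO against WT step, and it is given with no test.

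**Figure D3:**
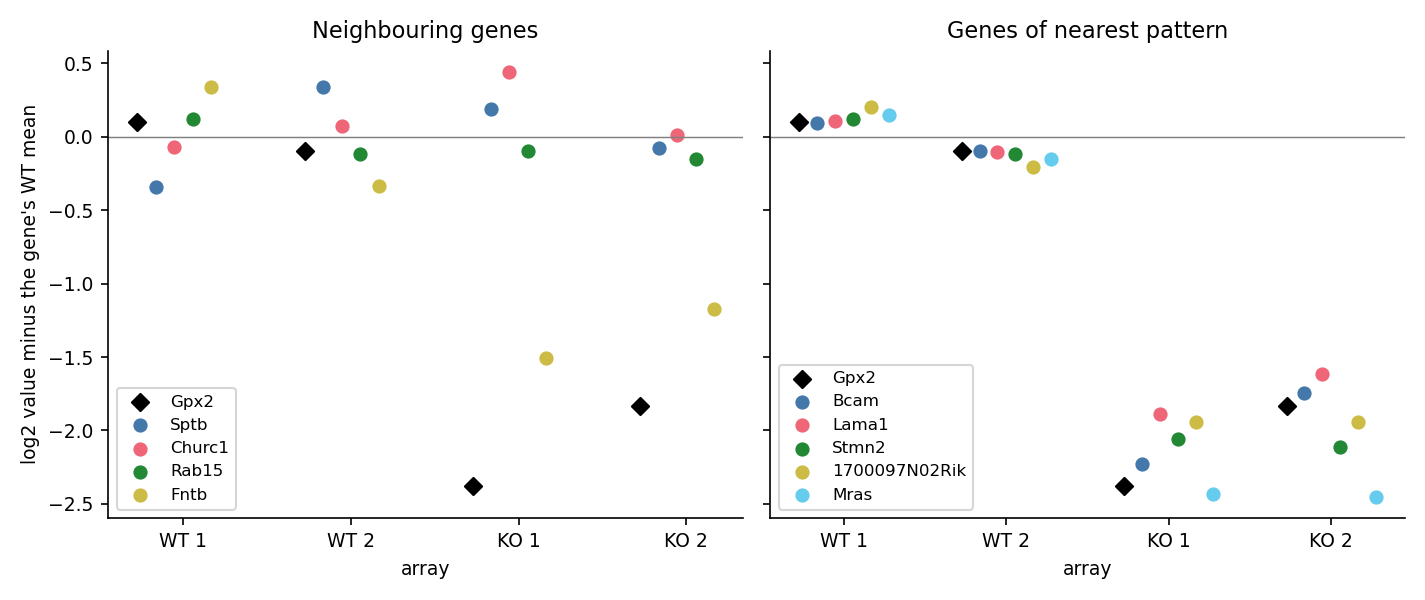
Log2 value of each gene in each array minus the gene's mean over the WT clones, for Gpx2 (black diamonds) with its chromosomal neighbours at left and with the genes of nearest pattern at right. Fntb is the only neighbour below 0 by more than 1 in both KO clones, while all 5 genes of nearest pattern lie at -1.61 or lower in both KO clones. The Gpx2 readings in KO clones are under the filter intensity.

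Other genes of thiol and peroxide metabolism were taken from 9 lists. Of 89 measured genes outside the members, 6 rose, 2 fell and 81 did not pass (limma, adjusted p under 0.05), against 4.28% past the threshold among all genes in either direction. The median log2 fold change was 0.01, beside -0.02 over all genes. A total of 36 were higher and 26 lower in both KO clones, and 27 overlapped, beside 25.9% higher and 29.7% lower over all genes. Centring the arrays on their medians gave 3 that rose and 10 that fell, so the balance of directions rests on the normalization.

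Glutathione S-transferases join glutathione to electrophiles. Of 22 measured, 3 rose and 19 did not pass, with a median of 0.29. Gsto1, an omega-class transferase with thiol transferase activity, read 629 and 663 in WT clones and 1927 and 1899 in KO clones, and rose by 1.54 ± 0.18 (2.92-fold, adjusted p = 0.0022). Its other probe set gave 1.52 (adjusted p = 0.0052). Gstm5, of the mu class, read 139 and 159 in WT clones against 315 and 343 in KO clones and rose by 1.07 ± 0.18 (adjusted p = 0.017). Mgst1, a membrane-bound transferase that also has peroxidase activity, read 71.2 and 89.7 in WT clones against 210.3 and 158 in KO clones and rose by 1.05 ± 0.21 (adjusted p = 0.029). Its other probe set was under the filter.

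Among 13 measured selenoproteins and factors of their synthesis, 2 rose and 11 did not pass, with a median of 0.31. On the probe sets used, every selenoprotein of the list except Sephs2 had a positive value (0.44 for Selenof to 1.04 for Selenop). The 4 genes lower in both KO clones were all synthesis factors, named after their values were seen: Eefsec (-0.69), Secisbp2 (-0.55), Sepsecs (-0.54) and Sephs2 (-0.48). None of them passed. The dimmer Sephs2 probe sets did not share its direction. One had 0.27 ± 0.19 (limma, adjusted p = 0.46), higher in both KO clones, and the other -0.05 ± 0.21 (adjusted p = 0.93), with overlap. Of the other factors, Sephs1 had -0.06, Trnau1ap 0.11 and Pstk 0.31. Selenop, the secreted carrier of selenium, read 225 and 209.8 in WT clones and 507 and 426 in KO clones and rose by 1.04 ± 0.19 (adjusted p = 0.020). Selenom, a selenoprotein of the endoplasmic reticulum, read 75.4 and 86.4 in WT clones against 176 and 152 in KO clones and rose by 0.89 ± 0.19 (adjusted p = 0.035). Of 10 genes of the NRF2 pathway, the main regulator of antioxidant genes, 1 rose and 9 did not pass. The one was Nqo1, a quinone reductase, with 153 and 176 in WT and 377 and 279.9 in KO clones, a rise of 0.92 ± 0.21 (adjusted p = 0.046). Maff, a small Maf factor, had 0.64 ± 0.18 (adjusted p = 0.091). The fibroblast markers were higher in the same arrays as the genes that rose, with a median log2 fold change of 2.23. The part of the markers in the rises was not tested. After centring on the median, the calls of Selenop (adjusted p = 0.052), Selenom (adjusted p = 0.077) and Nqo1 (adjusted p = 0.1) were lost.

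The 2 genes that fell came from the lists of cystine and cysteine supply and of glutathione breakdown and export, 1 from each. Over all genes, 1.34% were past the threshold as lower. After centring on the median 10 genes of the lists fell, among them Eefsec, Secisbp2, Sephs2 (by its brightest probe set), Sod2, Srxn1 and Txnrd3 of other lists. Of 6 measured genes of cystine and cysteine supply, 1 fell and 5 did not pass, with a median of -0.52 and values from -0.86 to -0.09. Slc1a5, a transporter of neutral amino acids, read 111 and 125 in WT clones and 57.3 and 58.1 in KO clones. It fell by 0.86 ± 0.18 (limma, adjusted p = 0.036), although its other, dimmer probe set had -0.31 (adjusted p = 0.58). Averaging its probe sets gave -0.59 and ended the call (limma, adjusted p = 0.075). Slc1a4, a relative that carries alanine, serine and cysteine, had -0.66 ± 0.18 (adjusted p = 0.084) on its brightest probe set. Its dimmer probe sets had -0.33 (limma, adjusted p = 0.4) and -0.21 (adjusted p = 0.66). Of 9 measured genes of breakdown and export, 1 fell and 8 did not pass. Anpep, an aminopeptidase of the cell surface, read 46.2 and 40.2 in WT clones against 15.4 and 13.6 in KO clones, close to the filter intensity, and fell by 0.96 ± 0.18 (adjusted p = 0.024). Chac1, which cleaves glutathione in the cytosol, had -0.92 ± 0.25 (adjusted p = 0.088), with -0.54 (adjusted p = 0.37) in the absence of WT clone 2 and -1.25 (adjusted p = 0.02) in that of WT clone 1.

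No gene of the other lists passed. Among 9 genes of NADPH supply, 16 of the thioredoxin, glutaredoxin and peroxiredoxin systems and 3 of catalase and the superoxide dismutases, 0 passed by limma, and 3, 7 and 1 had an unadjusted p under 0.05. By size, the leading genes of NADPH supply had 0.71 ± 0.19 for Me1, the cytosolic malic enzyme (adjusted p = 0.077), and -0.50 ± 0.21 for Idh2, a mitochondrial isocitrate dehydrogenase (adjusted p = 0.22). Txnrd3, a thioredoxin reductase, had -0.67 ± 0.19 (adjusted p = 0.097), Srxn1, sulfiredoxin, -0.65 ± 0.21 (adjusted p = 0.13), Sod2, the mitochondrial superoxide dismutase, -0.60 ± 0.20 (adjusted p = 0.13), and Sod1, its cytosolic counterpart, 0.44 ± 0.25 (adjusted p = 0.35). For Sod1 the value was 0.86 in the absence of WT clone 1 and 0.08 in that of WT clone 2. Its dimmer probe sets above the filter disagreed in sign, with 0.40 (limma, adjusted p = 0.27), -0.25 (adjusted p = 0.73) and -0.70 (adjusted p = 0.086). No direction is given for Sod1. Gpx6, another peroxidase of the family, had -0.04 ± 0.20 (adjusted p = 0.94), with 30.2 and 43.3 in WT and 37.2 and 33.0 in KO clones.

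**Figure D4:**
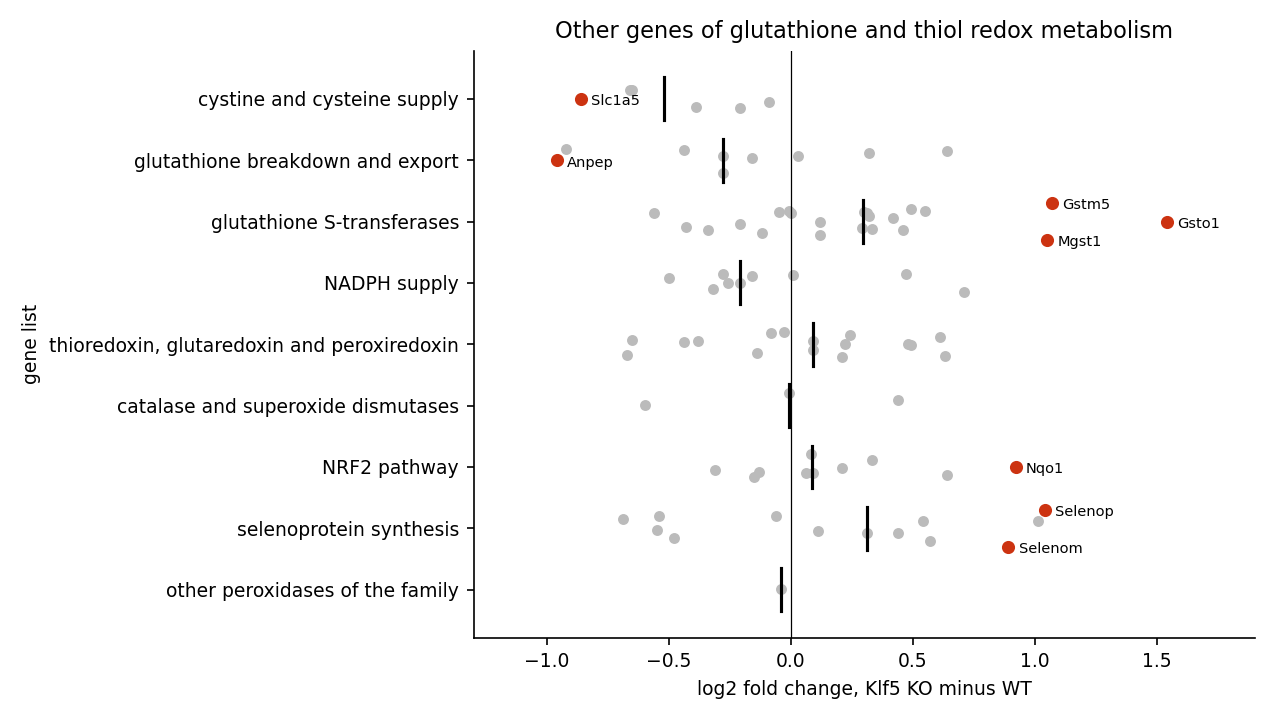
Log2 fold change between KO and WT clones of each measured gene of the 9 lists (1 probe set per gene), with red points and names for genes past the threshold (limma, adjusted p under 0.05), grey points for the others and a black bar at each list's median. The 6 genes that rose lie between 0.89 and 1.54 and the 2 that fell at -0.86 and -0.96.

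Few of these calls outlasted the loss of an array or another setting. With a pseudocount of 1, and with no filter, Gsto1 was the only gene of the lists that passed (adjusted p = 0.047 and 0.031), and with no normalization it did not (1.22, adjusted p = 0.073). Of other thiol redox genes 8 were past the threshold, and 3 when WT clone 1 was dropped, 2 when WT clone 2 was, and 1 when either KO clone was. Gsto1 passed in each of these fits (adjusted p from 0.0055 to 0.039), Gstm5 only without WT clone 2 (adjusted p = 0.047) and Selenop only without WT clone 1 (adjusted p = 0.049). The other 5 passed in none of these fits. Chac1 passed in the absence of WT clone 1 without being among the 8.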

How the data were processed

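The values deposited by the authors were linear intensities, with 45101 probe sets on each array, 64 of which were controls. Per the labels' protocols, biotin-labelled total RNA was hybridised to Affymetrix GeneChip arrays, and how probe sets were summarised, background corrected and scaled was not given in the sources used here. No detection calls were used. The arrays were quantile normalized and log2(intensity + 16) was taken (limma 3.58.1, R 4.3.3). Every change is thus relative to the other probe sets. Controls, and probe sets with a mean log2 value below the 40th percentile, were left out, which kept 27022. Groups followed the titles, and lmFit and eBayes compared KO with WT (2 residual and 6.87 prior degrees of freedom), with Benjamini-Hochberg adjustment over all kept probe sets and a threshold of 0.05. The number of arrays limits the precision. The fit was tested on simulated data. Names came from the platform annotation, where 34958 rows had 1 symbol, 932 several and 9160 rows other than controls none. IDs of 34754 rows matched the GRCm38.p6 gene table. A gene's probe set was that of highest mean, with _x_at as a last resort, for 13023 genes. Members, lists and tests were chosen with earlier results of these data known.

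The genes named were all members, Klf5, in each list every gene past the threshold, filled up to 2 by size, the 5 nearest to Gpx2 and its 2 protein-coding neighbours on each side. Other settings tried were pseudocounts of 1 and 64, the filter removed or set at the 60th percentile, no normalization, median centring, a variance trend, clone number as a block, averaging each gene's probe sets, and leaving out each array, where the lone array is taken to vary as the other group does.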

Additional observations from a re-analysis of the deposited data

How the results depend on the processing

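With 2 clones per group, counts of calls moved with nearly every setting, and dim probe sets, Gpx2 in KO clones among them, carry sizes that depend on the pseudocount. The probe sets past the threshold numbered 996 (659 higher and 337 lower). They were 189 and 2060 with a pseudocount of 1 and 64, 190 with no filter, 1955 with a variance trend, 332 with no normalization between arrays, 2060 after centring on the median (640 higher and 1420 lower) and 203 to 653 with an array left out (653 and 489 for WT clones 1 and 2, 203 and 353 for KO clones 1 and 2). Without normalization and after centring, the median of all genes moved from -0.02 to -0.23 and -0.19, and the median of the members from 0.43 to 0.17 and 0.21. Other thiol redox genes past the threshold numbered 8, and 1 and 21 with a pseudocount of 1 and 64, 1 with no filter and 13 with the stricter one, 0 with no normalization (limma, 17 at an unadjusted p under 0.05), 13 after centring, 17 with a variance trend, 16 on averaging each gene's probe sets, and 1 to 3 with an array left out.

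The Gpx2 difference was -3.69 and -1.02 with a pseudocount of 1 and 64 and -2.39 to -1.87 with an array left out, and the filter at the 60th percentile removed its probe set. The peroxidase minus synthesis and recycling difference (0.17) was 0.34 with no normalization, 0.34 after centring, 0.28 on averaging each gene's probe sets, and 0.09 to 0.28 with an array left out (0.28 without WT clone 2). Signs turned for genes that did not pass: Churc1 had -0.11 with no normalization and -0.07 after centring, Sod1 -0.03 with the mean of its probe sets, and, with an array left out, Gpx6 ran from -0.20 to 0.15 (0.15 without WT clone 2, 0.02 without KO clone 2) and Sptb from -0.26 to 0.41 (-0.26 without WT clone 1, -0.08 without KO clone 1). The cause of these changes was not tested.

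Clone numbers are shared between the groups, but nothing says that they pair the clones, and the clone 1 minus clone 2 differences of WT and KO correlated at 0.0545 across kept probe sets. With the clone number as a replicate block, 1390 probe sets and 10 other thiol redox genes passed, and the Gpx2 difference (-2.10) and the class difference (0.17) were the same by construction. No named gene lost its call under that block.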

Other observations

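Several genes of the lists had probe sets that did not share a call, and they are named here after their values were seen. A dimmer Prdx2 probe set (a peroxiredoxin of the cytosol) read 60.3 and 41.5 in WT clones and 170.4 and 126 in KO clones and rose by 1.30 ± 0.22 (limma, adjusted p = 0.016), while the brighter one, at 3159 and 3130.5 in WT and 4523 and 4275 in KO clones, had 0.48 ± 0.18 (adjusted p = 0.17). For Idh2 the dimmer probe set fell by 1.10 ± 0.22 (adjusted p = 0.032) against -0.50 for the brighter. For Selenow, a small selenoprotein, a brighter probe set with the suffix _x_at rose by 1.00 ± 0.19 (adjusted p = 0.025) against 0.57 ± 0.18 (adjusted p = 0.13) for the one used.

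Slc7a11, the cystine carrier of the glutamate exchanger, was under the filter in every array, at 5.75 and 7.94 in WT clones and 7.84 and 7.77 in KO clones on its brighter probe set. Sod3, the secreted superoxide dismutase, was also left out as dim, at 1.32 and 1.52 in WT clones and 21.3 and 10.6 in KO clones. Of 15 gut and epithelial markers, 5 were under the filter, Vil1, Lgr5 and Muc2 among them. Of the 10 measured, 1 fell (Krt18, a keratin, at -0.90, limma, adjusted p = 0.038) and 9 did not pass, beside 1.34% that fell over all genes. In both KO clones 6 were lower and 3 higher, and 1 overlapped, beside 29.7% lower and 25.9% higher over all genes. The ends were Krt19 at -0.99 (adjusted p = 0.061) and Cldn4 at 0.77 (adjusted p = 0.07). The summed level of all 15 was 6679.7 and 6055 in WT clones and 5001 and 5385 in KO clones.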
